A study of Rattus norvegicus with 6 samples.

Results

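The 10 genes described here, Lyz2, Csf1r, C1qa, Cd68, Ptprc, Cd163, Mrc1, Coro1a, Tyrobp and Fcer1g, are markers of the macrophages and other leukocytes that come along when heart tissue is taken apart. They were chosen by name, though with earlier results of these data known, and make up 10 of the 30001 features in the table. RNA sequencing had been run on NRVMs, ventricular heart muscle cells of newborn Sprague-Dawley rats in culture. The control group (treatment NC) and the knockdown group (treatment KD-Decr1, made with sh-Decr1) each had 3 libraries, and Decr1 encodes a mitochondrial enzyme that helps to break down unsaturated fatty acids. The labels name no vector, dose or time after treatment, and all 6 libraries carry the label batch 1. In both groups the cells came from a cardiomyocyte isolation kit, and those still floating after 2 h were moved to another dish, a step that thins out other heart cells but can leave some.

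Macrophages live in the heart from before birth. They depend on the receptor Csf1r, which answers the growth factors Csf1 and Il34, and they clear dying cells and debris with scavenger and lectin receptors such as Cd163 and Mrc1. Many of their activating receptors have no signalling tail of their own and work through the small membrane adaptors Tyrobp (DAP12) and Fcer1g (the Fc receptor gamma chain), which hand the signal to the kinase Syk. Coro1a, an actin-binding protein, and Ptprc, the phosphatase CD45, are carried by nearly all leukocytes.

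Values are FPKM, fragments on a gene scaled by its length and by the depth of the library. Control libraries were 39659092 to 40108670 fragments deep and knockdown libraries 35290664 to 37413240. A floor of 3 reads on a 1 kb gene is 0.0748 to 0.0850 FPKM by library. Decr1 itself was at 43.6 ± 0.752 FPKM under control treatment and at 2.31 ± 1.05 FPKM after knockdown (SD, n = 3 each), so the libraries match their labels. Every log2 fold change is that of FPKM + 1, with positive values meaning higher after knockdown, and low genes come out closer to 0 than their ratio of FPKM. Adjusted p-values are from limma with Benjamini-Hochberg adjustment over the 11975 features that passed a filter of 1 FPKM on the mean, and the threshold is 0.05. Of these features, 80.8% passed the threshold, 48.4% higher and 32.4% lower. On values scaled by median ratios 79.8% passed, 38.6% higher and 41.1% lower, and on quantile-normalized values 79.8%, 41.7% and 38.1%. The 3 versions put the median feature at 0.14, -0.02 and 0.03 on the log2 scale, the offset against which a small change is to be read. Whether the libraries of a group were separate cultures or animals is not in the labels, so a p-value here measures the spread between these samples only, which may be technical.

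Of the 10 markers, 9 passed the filter and Cd163 did not. Csf1r, C1qa, Lyz2, Mrc1, Tyrobp and Fcer1g fell, Coro1a rose, and Cd68 and Ptprc did not pass the threshold. These 6 falls and 1 rise stand beside 32.4% and 48.4% of all features called in the same directions, and 7 of 9 called is near the background of 80.8%. The groups did not overlap for 7 of the 9 markers tested, near the 82.3% of all features tested, nor for Cd163, which was under the filter. The median log2 fold change of the 9 was -0.24, against 0.14 for all features. The markers differed in size of change, from 19.9% of the control mean left for C1qa to 153% for Coro1a, leaving Cd163 aside. In bulk RNA, fewer cells of a type and less RNA per cell cannot be told apart.

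**Figure D1:**
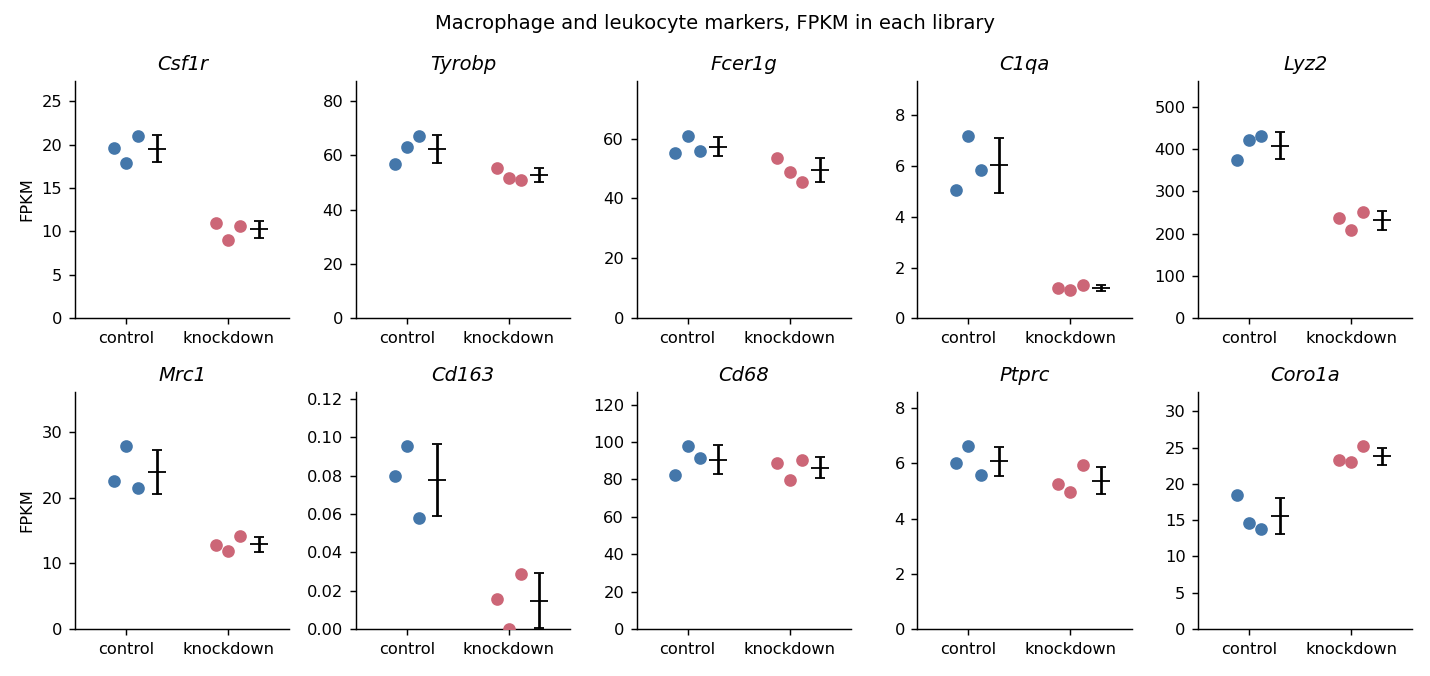
FPKM of the 10 markers in each of the 3 control (blue) and 3 knockdown (red) libraries, with the mean and SD in black beside the points (n = 3) and each y axis starting at 0. Csf1r, C1qa, Lyz2, Mrc1 and Cd163 are lower after knockdown by a wide gap, Tyrobp and Fcer1g by a narrow one, Cd68 and Ptprc overlap, and Coro1a is higher.

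The receptor Csf1r, on which the survival of tissue macrophages depends, measured 19.6, 17.9 and 21.0 FPKM in control libraries against 10.96, 9.05 and 10.7 FPKM after knockdown. The groups did not overlap, and each knockdown library was well under the lowest control. With 52.4% of the control mean left, the log2 fold change was -0.87 (SE 0.08, limma adjusted p = 3.53e-06). Its ligand gene Csf1 measured 80.8, 76.4 and 84.8 FPKM without and 73.5, 73.2 and 71.7 FPKM with knockdown, a small fall with a log2 fold change of -0.14 (SE 0.05, limma adjusted p = 0.017). Il34, the gene of the other ligand, lay under the filter, with 0.672 to 0.699 FPKM in control and 0.275 to 0.540 FPKM in knockdown libraries. It was not tested with the filter set. Its 510 control and 270 knockdown reads gave a ratio of 0.576 per fragment sequenced (exact 95% interval 0.495 to 0.669, for counting error only). Spi1 encodes PU.1, the transcription factor that macrophage development needs, and measured 7.47, 8.44 and 7.88 FPKM in control libraries and 10.98, 8.89 and 9.01 FPKM after knockdown. It rose on the FPKM as deposited, with a log2 fold change of 0.25 (SE 0.08, limma adjusted p = 0.0202), but did not pass on values scaled by median ratios (limma adjusted p = 0.395) or by quantiles (limma adjusted p = 0.169).

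Csf1, Il34, Spi1 and 9 more genes made up the list of ligands, signalling partners and lineage factors of Csf1r. Of these 12, 11 were tested, 3 rose and 3 fell, and the median log2 fold change was 0.11. With median-ratio scaling 1 rose and 3 fell, and the median of -0.077 had the other sign. Maf, a transcription factor of macrophages and lymphocytes, fell from 3.36 ± 0.162 to 1.99 ± 0.223 FPKM. Runx1, a factor of blood cell formation, fell from 6.76 ± 0.397 to 3.09 ± 0.142 FPKM. The myeloid factor Cebpa rose from 5.79 ± 1.31 to 8.09 ± 0.830 FPKM as deposited. This rise did not pass with median-ratio scaling (limma adjusted p = 0.0746) but passed with quantile normalization (limma adjusted p = 0.0399).

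The adaptor Tyrobp measured 56.7, 63.2 and 67.2 FPKM in control libraries against 55.4, 51.7 and 50.7 FPKM after knockdown. For Fcer1g, the other adaptor, the values were 55.2, 60.9 and 55.7 FPKM and 53.7, 49.0 and 45.6 FPKM. In both, the highest knockdown library lay just under the lowest control, so the groups parted by a narrow gap. Tyrobp fell, with a log2 fold change of -0.24 (SE 0.06, limma adjusted p = 0.00654), and so did Fcer1g, at -0.21 (SE 0.06, limma adjusted p = 0.0123). They kept 84.4% and 86.2% of their control means. The ratio of Tyrobp to Fcer1g FPKM in the same library was 1.03 to 1.20 in the controls and 1.03 to 1.11 after knockdown, and the groups overlapped.

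Receptors, kinases and other signalling genes listed around these adaptors went both ways. Not every gene on the list signals through Tyrobp or Fcer1g, and some restrain such signalling. Of 21, all tested, 4 rose, 8 fell and 9 did not pass, and the median log2 fold change was -0.062. With median-ratio scaling 3 rose and 11 fell around a median of -0.24. The low-affinity IgG receptor Fcgr3a rose from 3.39, 3.54 and 2.46 FPKM to 11.3, 14.3 and 12.8 FPKM, a log2 fold change of 1.75 (SE 0.11, limma adjusted p = 2.50e-07). Every knockdown library was above every control. Another IgG receptor of the family, Fcgr2a, fell from 21.2 ± 0.577 to 12.9 ± 0.408 FPKM. The Fcgr genes resemble each other in sequence, and the sources used here do not say how reads were shared between them, so their separate values are uncertain. Lyn, a Src-family kinase that phosphorylates such adaptors, rose from 14.2 ± 0.636 to 19.1 ± 0.0879 FPKM. Ptpn6, the phosphatase SHP-1 that restrains this signalling, fell from 13.6 ± 0.404 to 6.99 ± 0.886 FPKM.

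C1qa encodes the A chain of C1q, the recognition molecule of the classical complement pathway, which macrophages make. It measured 5.04, 7.20 and 5.85 FPKM in control libraries, on 202, 286 and 235 reads. After knockdown it measured 1.17, 1.09 and 1.33 FPKM, on 44, 41 and 47 reads. No knockdown library came near the controls. The log2 fold change of -1.67 (SE 0.11, limma adjusted p = 2.54e-07) was the lowest of the 9 markers tested, and 2.82% of all features tested had a lower one. The B and C chains lay under the filter and were not tested with it set. C1qb rested on 122 control and 38 knockdown reads, a ratio of 0.339 per fragment sequenced (exact 95% interval 0.229 to 0.491). C1qc rested on 69 and 27 reads, a ratio of 0.426 (0.262 to 0.673). Both intervals cover counting error only, and for both chains the FPKM of the groups overlapped.

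Of 6 C1q chains and binding partners besides C1qa, 4 were tested, 0 rose, 3 fell and Cd93 did not pass. Lrp1, an endocytic receptor also abundant on fibroblasts, fell from 125 ± 8.47 to 17.1 ± 1.13 FPKM. The C1q-binding protein C1qbp fell from 152 ± 8.05 to 122 ± 3.50 FPKM. Calr, the chaperone calreticulin, was at 774 ± 4.07 and 723 ± 14.5 FPKM and was called lower as deposited and with median-ratio scaling. With quantile normalization it was called higher, by 0.15 on the log2 scale, so its direction depended on the scaling. Cd93, a receptor of phagocytes and endothelium, was at 3.13 ± 0.279 and 2.66 ± 0.471 FPKM (limma adjusted p = 0.12) and was called lower under either scaling.

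Lyz2, the lysozyme of myeloid cells, had the highest level of the 10 markers in both groups. It measured 373, 420.3 and 431 FPKM in control libraries against 236, 208 and 252 FPKM after knockdown. The groups stood far apart, and among the controls 98.6% of the features tested had a lower mean FPKM. The log2 fold change was -0.81 (SE 0.08, limma adjusted p = 3.62e-06), with 56.8% of the control mean left.

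Cd68, a glycoprotein of macrophage lysosomes, kept 95.2% of its control mean. It measured 82.5, 97.6 and 91.6 FPKM in control libraries against 88.6, 79.7 and 90.4 FPKM after knockdown, and the groups overlapped. As deposited the log2 fold change was -0.069 (SE 0.07, limma adjusted p = 0.371). With median-ratio scaling it was -0.25 (limma adjusted p = 0.00802), and with quantile normalization -0.24 (limma adjusted p = 0.00935), so whether Cd68 is called lower depended on the scaling.

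The mannose receptor Mrc1, a lectin of resident and alternatively activated macrophages, measured 22.6, 27.9 and 21.5 FPKM in control libraries against 12.8, 11.8 and 14.2 FPKM after knockdown. All 3 knockdown libraries were lower than any control. Its log2 fold change was -0.84 (SE 0.10, limma adjusted p = 1.74e-05), and 53.9% of the control mean was left. By the RefSeq annotation of GRCr8, Mrc1 is the 1 of the 10 genes that overlaps other genes, a long non-coding RNA and the microRNA gene Mir511. With no strand setting stated for the counting, reads of overlapping genes cannot be told apart.

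Cd163, the scavenger receptor for haemoglobin bound to haptoglobin, was low in both groups. It had 22, 26 and 16 reads in control libraries and 4, 0 and 7 reads after knockdown, or 0.0800, 0.0953 and 0.0580 FPKM against 0.0155, 0 and 0.0288 FPKM. The library at 0 reads allows up to 3. Pooled over libraries, 64 and 11 reads gave a ratio of 0.187 per fragment sequenced (exact 95% interval 0.0889 to 0.357, for counting error only). The ratio was 0.1001 without knockdown replicate 3 and 0.283 without knockdown replicate 2.

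The other scavenger, lectin and clearance receptors were split. Of 14, 8 were tested, 3 rose, 4 fell and 1 did not pass, and the median log2 fold change was -0.12. Under either scaling 2 rose and 4 fell. The scavenger receptor Msr1 fell from 17.99 ± 1.21 to 9.27 ± 0.784 FPKM. Clec10a, a galactose lectin of macrophages and dendritic cells, fell from 1.81 ± 0.429 to 0.347 ± 0.0631 FPKM. Axl, a receptor for dying cells that fibroblasts also carry, fell from 68.8 ± 3.33 to 32.1 ± 1.02 FPKM. In the other direction Cd5l, a secreted scavenger protein of tissue macrophages, rose from 0.420, 0.552 and 0.431 FPKM to 3.03, 2.64 and 2.38 FPKM, a log2 fold change of 1.33 (SE 0.09, limma adjusted p = 3.36e-07). These values rested on 33, 43 and 34 reads in control and 223, 194 and 165 reads in knockdown libraries.

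Ptprc, or CD45, measured 6.00, 6.61 and 5.59 FPKM in control libraries against 5.25, 4.95 and 5.93 FPKM after knockdown. Knockdown replicate 3 lay above the lowest control, so the groups overlapped. The log2 fold change of -0.15 (SE 0.08, limma adjusted p = 0.115) did not pass as deposited. It passed at -0.31 (limma adjusted p = 0.0058) with median-ratio scaling and at -0.25 (limma adjusted p = 0.0183) with quantile normalization. Without knockdown replicate 3 it was -0.21 and passed (limma adjusted p = 0.0461).

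Coro1a, the leukocyte coronin, was the 1 marker that rose. It measured 18.4, 14.5 and 13.8 FPKM in control libraries against 23.3, 23.0 and 25.2 FPKM after knockdown. Control replicate 1 stood above the other two, and every knockdown library was higher still. The log2 fold change was 0.59 (SE 0.09, limma adjusted p = 0.000196), and 0.41 (limma adjusted p = 0.00204) with median-ratio scaling.

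**Figure D2:**
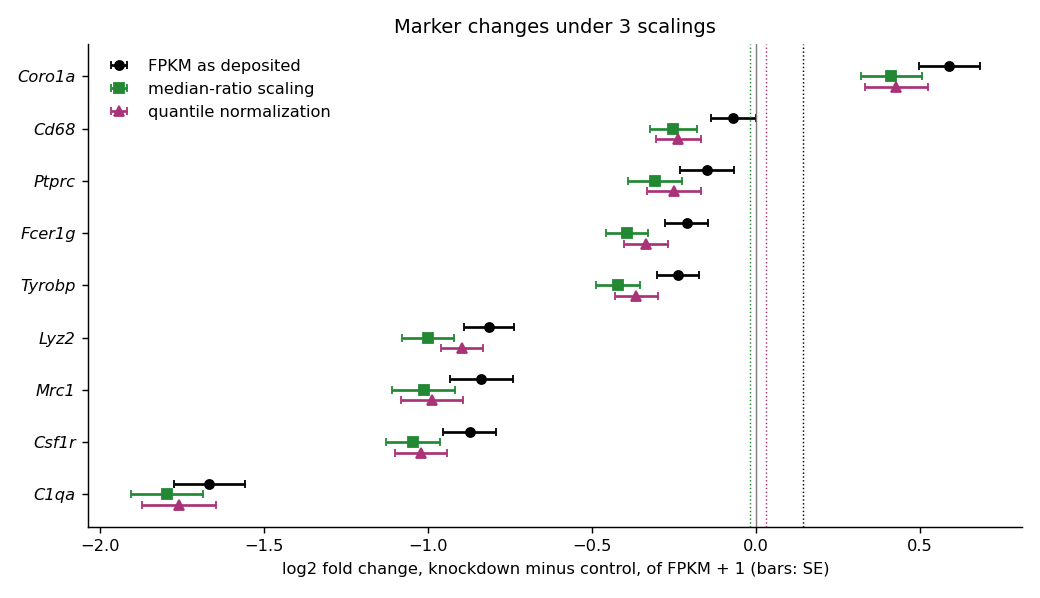
Log2 fold change of FPKM + 1, knockdown minus control, of the 9 markers tested, with SE bars from limma (3 libraries per group), for FPKM as deposited (circles), scaled by median ratios (squares) and quantile-normalized (triangles). Dotted lines give the median of all features under each (0.14, -0.02 and 0.03). Coro1a is at 0.59 and C1qa at -1.67 as deposited, and Cd68 and Ptprc lie nearest to 0.

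Other genes carried by most leukocytes also moved in both directions. Of 20, 15 were tested, 4 rose, 8 fell and 3 did not pass, and the median log2 fold change was -0.19. Under either scaling 4 rose and 9 fell. Lcp1, the actin-bundling plastin of leukocytes, fell from 49.98 ± 0.601 to 28.2 ± 2.36 FPKM. Arhgdib, a signalling regulator of leukocytes, fell from 47.3 ± 2.10 to 37.0 ± 1.06 FPKM. Hcls1, a leukocyte relative of cortactin, rose from 19.7 ± 0.584 to 27.0 ± 0.255 FPKM. Selplg, the selectin ligand PSGL-1, rose from 8.73 ± 0.603 to 13.4 ± 0.384 FPKM.

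The list of other macrophage and monocyte genes held 20, of which 14 were tested, 2 rose, 7 fell and 5 did not pass, with a median of -0.27. With median-ratio scaling 1 rose and 10 fell. Gpnmb, a glycoprotein of lipid-laden macrophages that other cells make as well, measured 1002, 1162 and 1032 FPKM in control libraries against 509.9, 480.1 and 534 FPKM after knockdown. Its log2 fold change was -1.06 (SE 0.06, limma adjusted p = 1.14e-07). Cd14, the co-receptor for lipopolysaccharide, fell from 47.0 ± 3.50 to 28.1 ± 2.81 FPKM. The shared beta chain of the GM-CSF receptor, Csf2rb, fell from 11.7 ± 0.871 to 6.19 ± 0.631 FPKM, and the lectin gene Clec4a3 fell from 2.45 ± 0.231 to 0.904 ± 0.131 FPKM. The chemokine receptor gene Cx3cr1 was listed at 0 in all 6 libraries.

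Of the 5 genes of the phagocyte NADPH oxidase, which makes superoxide, 1 rose, 3 fell and 1 did not pass. The list had a median of -0.67 on the log2 scale. Under either scaling 1 rose and 4 fell. Of the membrane subunits, Cyba fell from 226 ± 13.6 to 104 ± 4.74 FPKM and Cybb fell from 61.0 ± 2.29 to 38.2 ± 5.28 FPKM. Among the cytosolic subunits, Ncf4 fell from 10.4 ± 1.12 to 4.55 ± 0.711 FPKM. Ncf1 did not pass as deposited and was called lower under either scaling.

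Of 8 genes of MHC class II presentation, 2 were tested, and both fell, while genes under the filter also went the other way. RT1-DMb and RT1-DMa encode the chains of a protein that helps to load peptides. RT1-DMb fell from 13.4 ± 1.98 to 5.53 ± 0.523 FPKM, and RT1-DMa fell from 18.7 ± 1.11 to 14.1 ± 0.386 FPKM. The class II genes RT1-Da, RT1-Db1, RT1-Ba and RT1-Bb stayed under 1 FPKM in every library. RT1-Db1 measured 0.0983, 0.198 and 0.157 FPKM in control libraries against 0.463, 0.399 and 0.891 FPKM after knockdown, without overlap, and passed as higher when no filter was set (limma adjusted p = 0.0189). Ciita, the regulator that switches class II genes on, did so too (limma adjusted p = 0.0306), at 0.0200 ± 0.0215 and 0.0734 ± 0.0168 FPKM. Cd74, the invariant chain, had 88 control and 148 knockdown reads, a ratio of 1.83 per fragment sequenced, but its groups overlapped. These 3 were chosen with their values known. RT1 genes have near copies, and the division of reads among them is uncertain.

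Over these 8 lists together, 80 of 106 genes were tested, 17 rose and 38 fell, and the median log2 fold change was -0.13 against 0.14 for all features. With median-ratio scaling 12 rose and 47 fell around a median of -0.30, and with quantile normalization 14 and 44 with a median of -0.23.

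Markers of other leukocyte classes were mostly at or near 0. Of 48 genes on 6 lists for T cells, B cells, natural killer cells, neutrophils, mast cells and dendritic cells, 5 were tested and 39 stayed under 1 FPKM in every library. The T cell receptor subunits Cd3e and Cd3g, the B cell gene Ms4a1 and the neutrophil gene S100a9 were listed at 0 in all libraries. T cell genes under the filter were not all near 0. Cd28 had 236 control and 402 knockdown reads, a ratio of 1.85 per fragment sequenced (exact 95% interval 1.57 to 2.19). Lck had 187 and 308 reads, a ratio of 1.79 (1.49 to 2.16). Both intervals cover counting error only, and for neither gene did the groups overlap. Both genes were named with their values known, and the 2 T cell genes tested fell. Over the 6 libraries Cpa3, a mast cell protease, had 2 reads. The B cell receptor subunit Cd79a had 1, 2 and 4 reads in control libraries and 1, 17 and 1 after knockdown. Flt3, the receptor of dendritic cell precursors, had 1 to 13 reads a library, and the calprotectin gene S100a8 had 8 to 22.

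The genes tested on these lists were Cd4, Cd8a, Hdc, Zbtb46 and Itgax. Cd4, which rat monocytes and macrophages carry besides T cells, fell from 5.30 ± 0.650 to 3.79 ± 0.945 FPKM, and Cd8a fell from 2.04 ± 0.353 to 0.954 ± 0.252 FPKM. Hdc, which makes histamine in mast cells and other cells, fell from 5.79 ± 0.349 to 0.363 ± 0.0718 FPKM, while the mast cell genes Fcer1a, Cma1 and Tpsb2 were listed at 0 throughout. Zbtb46, a factor of dendritic cells and endothelium, fell from 1.44 ± 0.0204 to 0.895 ± 0.153 FPKM. Itgax, or CD11c, was at 2.74 ± 0.120 and 2.36 ± 0.251 FPKM and did not pass as deposited (limma adjusted p = 0.0874), but was called lower under either scaling.

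In level, the 10 markers reached from Lyz2 at 408 ± 31.1 FPKM to Cd163 at 0.0777 ± 0.0188 FPKM in control libraries. Below Lyz2 came Cd68 at 90.6 ± 7.57, Tyrobp at 62.3 ± 5.28, Fcer1g at 57.3 ± 3.16 and Mrc1 at 24.0 ± 3.40 FPKM. Csf1r at 19.5 ± 1.55, Coro1a at 15.6 ± 2.48, Ptprc at 6.07 ± 0.512 and C1qa at 6.03 ± 1.09 FPKM followed. Among neighbours in that order, Tyrobp and Fcer1g, Csf1r and Coro1a, and Ptprc and C1qa overlapped between libraries, and the other pairs did not. After knockdown the order changed at 1 place, where Coro1a at 23.8 ± 1.16 FPKM stood above Mrc1 at 12.9 ± 1.17 and Csf1r at 10.2 ± 1.03 FPKM. Within groups, knockdown replicate 2 had the lowest value for 8 of the 10 markers and control replicate 2 the highest for 6 of 10.

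The ratio of a marker to Csf1r in the same library does not depend on a scaling by 1 factor per library, such as median ratios. Quantile normalization can change it, and the ratios here are of FPKM as deposited. Cd68 was 4.21, 5.44 and 4.36 times Csf1r in control libraries and 8.08, 8.80 and 8.48 times after knockdown. For Ptprc the ratio was 0.306, 0.369 and 0.266 without and 0.479, 0.547 and 0.556 with knockdown. Both markers therefore stood higher relative to Csf1r in every knockdown library than in any control.

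Tyrobp went from 3.20 ± 0.317 to 5.18 ± 0.487 times Csf1r, Fcer1g from 2.95 ± 0.393 to 4.86 ± 0.566 times, and Coro1a from 0.803 ± 0.141 to 2.34 ± 0.207 times, each without overlap. C1qa went the other way, from 0.312 ± 0.0780 to 0.118 ± 0.00925 times Csf1r. Lyz2 was 21.0 ± 2.26 times Csf1r in control libraries and 22.7 ± 1.10 times after knockdown, and Mrc1 1.24 ± 0.277 and 1.27 ± 0.0901 times, and for both the groups overlapped. Over the 8 ratios, two-sided exact permutation tests gave p = 0.1 for the 6 without overlap, the smallest p that 3 libraries against 3 allow (0.133 with Benjamini-Hochberg adjustment). The same exact permutation test gave p = 0.3 for Lyz2 and p = 0.9 for Mrc1 (0.343 and 0.9 adjusted). The ratio of Cd163, which has a library at 0, was not tested. How many of all features part from Csf1r without overlap was not counted. Of the features tested, 9.88% had a lower log2 fold change than Csf1r. A change above that of Csf1r, on the scale of FPKM + 1, is therefore common among all features and not particular to these markers.

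**Figure D3:**
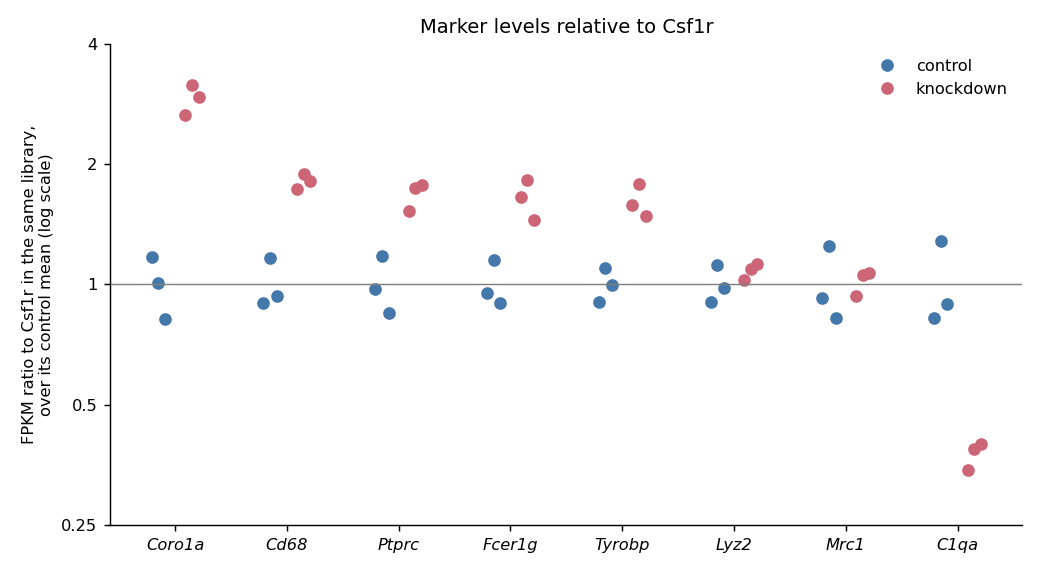
FPKM ratio of 8 markers to Csf1r in the same library, divided by the mean ratio of the 3 controls, on a log axis, with each point 1 library (control blue, knockdown red). Coro1a, Cd68, Ptprc, Fcer1g and Tyrobp lie above all controls after knockdown, Lyz2 and Mrc1 overlap, and C1qa lies below.

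Patterns most like that of Csf1r were sought among all features tested, by the root mean square difference of log2(FPKM + 1) values centred over the 6 libraries. The 5 nearest were RGD1306556 (0.0445), the fibrillin gene Fbn2 (0.0519), the transcription factor gene Sox9 (0.0521), the mitochondrial ribonuclease P subunit Prorp (0.0552) and Ltbp3 (0.0562), whose product binds latent TGF-beta, with the difference in parentheses. None is on a marker list used here. Adding 1 to the FPKM shrinks the change of low genes, so likeness by this measure is not likeness in the ratio of FPKM. RGD1306556, Fbn2, Sox9 and Prorp had control means of 2.33, 2.85, 4.89 and 4.59 FPKM. They kept 34.9%, 41.1%, 41.8% and 45.1% of these, against 52.4% for Csf1r. Ltbp3, at 31.8 FPKM in the controls, kept 53.4%. Of the other markers Lyz2 was nearest, at rank 116 with a difference of 0.0988, followed by Mrc1 at rank 952. All features share the same libraries and groups, so this describes a like pattern and no more.

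Markers of other cell types moved in the same libraries. Those of cardiomyocytes, the labelled cell type, summed to 18838 to 19459 FPKM in control and 13256 to 14155 FPKM in knockdown libraries, and of the 14 genes 7 rose and 7 fell (5 and 7 with median-ratio scaling). The lower sum rested on Nppa, the gene of atrial natriuretic peptide, which fell from 11702 ± 276 to 5010.2 ± 268 FPKM. Without it the other 13 genes summed to 7448 to 7548 FPKM in control and to 8553 to 8957 FPKM in knockdown libraries, so the direction of the sum turned. Nppa was picked out after its values were seen. Myl3, a myosin light chain, rose from 621 ± 7.59 to 1314 ± 8.37 FPKM, while the ventricular light chain Myl2 fell from 721 ± 35.8 to 45.0 ± 5.06 FPKM. The myosin heavy chains Myh7 and Myh6 fell to 13.9% and 39.4% of their control means.

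All 12 fibroblast markers fell, at a median log2 fold change of -3.40, with summed levels of 7449.9 to 8291 FPKM in control and 640.4 to 736 FPKM in knockdown libraries. The matrix genes Fbln1, Col1a1, Col1a2 and Postn kept 5.13%, 7.67%, 8.94% and 7.90% of their control means. Of 6 epicardial markers, the 5 tested fell, with sums of 179 to 198 FPKM in control and 4.25 to 4.83 FPKM in knockdown libraries. Among these Msln, Upk1b, Upk3b and Lrrn4 kept 0.110% to 8.30%.

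Smooth muscle and pericyte markers split, with 2 of 8 higher and 5 lower (2 and 6 with median-ratio scaling, 3 and 5 with quantile normalization). Cnn1 and Acta2 rose to 235% and 208% of their control means, and Pdgfrb and Abcc9 fell to 16.7% and 29.8%. Of 10 endothelial markers, 6 were tested, 2 rose and 3 fell (1 and 3 under either scaling), and their sums overlapped at 17.6 to 19.0 and 17.4 to 18.9 FPKM. Kdr, a VEGF receptor, rose from 2.85 ± 0.286 to 6.43 ± 0.485 FPKM, whereas Tie1, Tek and Egfl7 fell. Of 5 Schwann cell markers, S100b was the 1 tested, and it fell from 1.90 ± 0.265 to 0.554 ± 0.0748 FPKM. None of 6 red cell markers reached 1 FPKM in any library. The part of these other cells in the values of the 10 markers was not tested.

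The fibroblast markers fell by more than any of the 9 markers tested. The geometric mean of all 12 was 125, 117 and 121 FPKM in control libraries and 9.53, 8.62 and 7.95 FPKM after knockdown. Csf1r was 0.157, 0.153 and 0.174 times that mean without and 1.15, 1.05 and 1.34 times with knockdown, so its ratio was 7.29-fold higher. The same fold was 2.79 for C1qa, 7.55 for Mrc1, 7.92 for Lyz2, 11.8 for Tyrobp, 12.01 for Fcer1g, 12.3 for Ptprc, 13.3 for Cd68 and 21.5 for Coro1a. The groups did not overlap for these 9 ratios, but the same held, in the same direction, for 98.9% of all features tested, so the separation says nothing particular about the markers. The ratio was chosen after the values were seen. For Cd163, at 0 reads in 1 library, no fold is given.

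**Figure D4:**
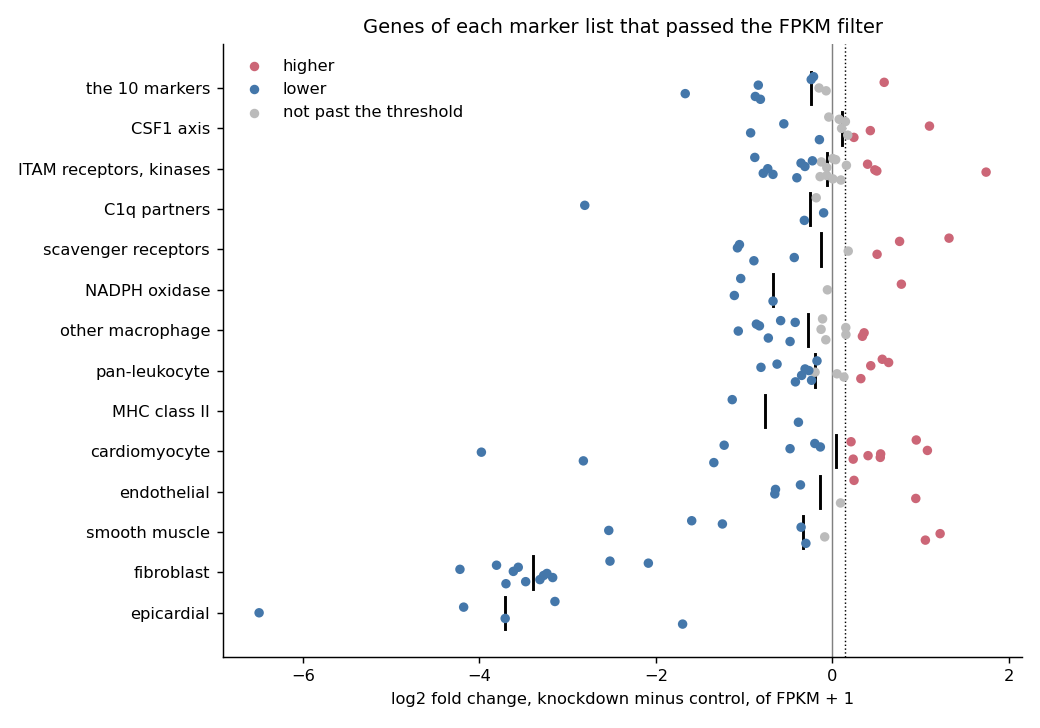
Log2 fold change of FPKM + 1, knockdown minus control, of the genes that passed the filter on each marker list (red, higher; blue, lower; grey, not past the threshold by limma, 3 libraries per group), with the list median as a black bar and the median of all features (0.14) as a dotted line. The 10 markers and the 8 lists of macrophage and pan-leukocyte genes have medians between -0.76 and 0.11, while every tested fibroblast and epicardial marker is lower.

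RefSeq upstream windows were found for 8 of the 10 markers, and are shown for 4. The 250 bases before the annotated start were searched on both strands for GAGGAA, a core that PU.1 binds, for TTCNNNGAA, the interferon gamma-activated site, and for the interferon-stimulated response element, a pair of GAAA runs with 2 bases between them. GAGGAA was present in 5 of the 8 windows, against 23.3% of all 33469 windows of the same length. TTCNNNGAA was present in 1 of 8, that of C1qa, against 7.67%, and the response element in 0 of 8 against 3.41%. Windows with GAGGAA were those of Csf1r and Mrc1, with 2 matches each, and of Lyz2, Cd68 and Ptprc, with 1 each. Genes that fell (Csf1r, Mrc1, Lyz2) and genes that did not pass (Cd68, Ptprc) thus both held it. The windows of C1qa, which also fell, of Cd163, which was lower but not tested, and of Coro1a, which rose, did not hold these letters. A match is a run of letters, not a shown site of binding. The 4 windows let the promoters of Mrc1 and Lyz2, which fell, be set beside those of Cd68, which did not pass, and Coro1a, which rose. They read 5′ to 3′ on the strand of the gene, with GAGGAA or its reverse complement TTCCTC in capitals. In GRCr8 they lie at chr17:82157475-82157724 on the plus strand for Mrc1, and on the minus strand at chr7:54798012-54798261 for Lyz2, chr10:54882442-54882691 for Cd68 and chr1:190731104-190731353 for Coro1a.
Mrc1 upstream window: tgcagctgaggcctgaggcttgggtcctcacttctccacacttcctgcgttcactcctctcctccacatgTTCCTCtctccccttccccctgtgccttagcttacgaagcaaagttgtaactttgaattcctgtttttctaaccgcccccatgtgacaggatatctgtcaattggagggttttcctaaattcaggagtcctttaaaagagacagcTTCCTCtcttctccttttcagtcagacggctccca
Lyz2 upstream window: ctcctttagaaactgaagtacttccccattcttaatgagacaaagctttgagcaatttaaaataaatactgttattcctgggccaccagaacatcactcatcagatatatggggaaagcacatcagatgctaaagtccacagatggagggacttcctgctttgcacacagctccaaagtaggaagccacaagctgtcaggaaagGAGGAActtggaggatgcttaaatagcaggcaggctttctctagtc
Cd68 upstream window: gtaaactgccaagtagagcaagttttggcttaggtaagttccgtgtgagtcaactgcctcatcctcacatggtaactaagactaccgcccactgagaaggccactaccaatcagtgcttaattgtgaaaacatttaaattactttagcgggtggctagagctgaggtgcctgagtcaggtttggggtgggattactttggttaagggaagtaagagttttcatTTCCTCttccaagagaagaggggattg
Coro1a upstream window: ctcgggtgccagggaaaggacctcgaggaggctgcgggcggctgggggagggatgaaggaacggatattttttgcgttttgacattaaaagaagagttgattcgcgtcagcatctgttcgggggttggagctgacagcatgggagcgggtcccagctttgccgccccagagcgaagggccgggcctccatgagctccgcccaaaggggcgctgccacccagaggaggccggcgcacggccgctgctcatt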

How the data were processed

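RNA was extracted with TRIzol and a VAHTS kit was used for the libraries, per the labels' protocols. Of tools, fastp, HISAT2 and HTSeq appear in the submitters' processing notes. The genome build, the gene models and any strand option are named in none of the sources used. The authors deposited one FPKM value per gene and library, per the file headers.

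Whole reads and depths were recovered for each of the 22634 features above 0, as multiples of 1 step per feature within 1e-05 reads (in proportion for large counts). They serve to show depth and to pool low genes, not for the limma tests. Between libraries of a group, the chi-square of these reads per feature was 7.15 to 12.3, where sampling noise gives about 1, so no 2 libraries were counted as 1.

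Tests used limma 3.58.1 (eBayes with trend) in R 4.3.3 on log2(FPKM + 1), two-sided and without covariates, for features whose mean over the 6 libraries reached 1 FPKM. The fit and the recovery were tested on simulated data. In the simulated fit 200 of 11975 features were changed, whereas 80.8% of features were called in these data. It therefore does not check the calls or the scaling under a shift of this size. Ratios within a library were tested by exact permutation in Python 3.11.15. The alternatives were median-ratio scaling, quantile normalization, a pseudocount of 0.1, no filter, the replicate number as a block, and each library left out in turn.

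The markers, the 21 other gene lists and the tests were chosen with earlier results of these data known. Named are the 10 markers, Decr1, Csf1, Il34, Spi1, per list the 4 genes at most that had the lowest adjusted p, the 5 features most like Csf1r, and defining markers at or near 0. Some genes that this rule names are not reported here. Other genes were named after their values were seen. Upstream windows are from RefSeq on GRCr8.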

Additional observations from a re-analysis of the deposited data

How the results depend on the processing

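The 9 markers tested kept their direction under all 11 alternatives, and their calls held except for Cd68 and Ptprc. Cd68 passed with median-ratio scaling (-0.25) and quantile normalization (-0.24), and Ptprc with both (-0.31 and -0.25). With 1 library left out, Ptprc lay between -0.21 and -0.094 and passed without knockdown replicate 3. The limma adjusted p of Fcer1g reached 0.0498 with 1 library left out. The markers called lower numbered 6 as deposited, 8 under either scaling and 6 to 7 with 1 library left out. The share of all features called lower also moved. It was 32.4% as deposited, 41.1% with median-ratio scaling and 38.1% with quantile normalization. The median of the 9 moved from -0.24 to -0.42 with median-ratio scaling and -0.36 with quantile normalization.

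With no filter on low values, Cd163 had a log2 fold change of -0.087 (limma adjusted p = 0.0111). More genes of some lists were then tested, and 4 MHC class II (2 higher and 2 lower), 1 B cell, 2 natural killer, 1 neutrophil and 3 red cell genes were called. Under either scaling 2 dendritic cell genes were called in place of 1. With 1 library left out, 1 to 2 T cell genes and 1 to 2 dendritic cell genes were called. The log2 ratio of Mrc1 to Csf1r, 0.049 in all libraries, turned to -0.079 without control replicate 3 and lay between -0.079 and 0.22 with 1 library left out. The cause was not tested.

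Libraries share a replicate number and nothing else in the labels. The deviations of same-numbered libraries correlated at -0.0027, 0.0678 and -0.0713 across features, so no pairing by number was seen. Libraries of unlike number reached -0.1466 and 0.1461. The deviations of 3 libraries from their own mean are tied to each other, so these values cannot decide whether samples were paired. With the replicate block 9574 features were called in place of 9678, and 6 markers were lower and 1 higher. Depth limits the values of Cd163, C1qb and C1qc.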

Other observations

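Several leukocyte genes under the filter, picked out after their values were seen, differed by more than counting error between the pooled groups. Intervals are exact 95% intervals for counting error only, and the cause was not tested. The filter kept these genes out of the fit on the FPKM as deposited. With no filter set, the limma adjusted p was 0.000713 for Ms4a6a, 0.000276 for Ms4a7 and 0.00199 for Stab1. Ms4a6a, a membrane gene of macrophages, had 139, 165 and 120 reads in control and 39, 15 and 34 reads in knockdown libraries, a ratio of 0.226 per fragment sequenced (0.177 to 0.285). Its relative Ms4a7 went the other way, with 27, 16 and 14 reads in control and 77, 81 and 62 reads in knockdown libraries, a ratio of 4.20 per fragment sequenced (3.12 to 5.72). For each of these the groups did not overlap.

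Klrk1, the gene of the receptor NKG2D of natural killer and T cells, had 0, 1 and 1 reads in control and 54, 54 and 39 reads in knockdown libraries, a ratio of 79.9 per fragment sequenced (21.7 to 666). The natural killer genes Prf1 and Klrd1 were listed at 0 in all 6 libraries. Lck, a kinase of T cells, had 60, 50 and 77 reads in control and 118, 98 and 92 reads in knockdown libraries, a ratio of 1.79 per fragment sequenced (1.49 to 2.16), and the T cell receptor subunits Cd3e and Cd3g were listed at 0. Stab1, a scavenger receptor of macrophages and endothelium, had 236, 335 and 240 reads in control and 80, 107 and 77 reads in knockdown libraries, a ratio of 0.354 per fragment sequenced (0.307 to 0.407).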
